A study of Capra hircus with 6 samples.

Results

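The expression of 8 genes that mark forebrain regions beside the hypothalamus was examined in goat hypothalamus, out of 20225 genes in the mRNA table. They were picked by name, as genes known to mark other forebrain regions. They were ADORA2A, PPP1R1B, RGS9 and BCL11B for the striatum, TBR1 and NEUROD6 for the cortex, and TCF7L2 and LHX9 for the thalamus. The FPKM of all transcripts of a gene, that is fragments scaled by transcript length and by mapped fragments, was summed in each library, which gave 9 transcripts for the 8 genes. All goats were female and of the Anhuai strain, and each gave 1 library. The pubertal group held 3 animals aged 4.5 to 5 months, taken late in the follicular phase, and the prepubertal group held 3 animals aged 2.5 to 3 months, so that age and reproductive stage cannot be told apart. The tissue was surgically removed hypothalamus, and the borders of the dissection are not given in the sources used here. Values are given below in the order of replicates 1, 2 and 3 of each stage.

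The striatum is built mainly of medium spiny neurons, which read dopamine through D1 or D2 receptors and relay it through cAMP. The cortex is built mainly of glutamatergic projection neurons, whose identity depends on factors such as TBR1 and the NEUROD family. The thalamus, which lies just above the hypothalamus, keeps TCF7L2 in its neurons through adult life. None of these genes is exclusive to its region. PPP1R1B is also made in tanycytes of the median eminence, TCF7L2 in differentiating oligodendrocytes, BCL11B in T cells, and LHX9 in neurons of the lateral hypothalamus. In tissue of many cell types, fewer cells of a type and less RNA per cell cannot be told apart.

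The 6 libraries had similar overall values. The median log2(FPKM + 1) of the 16397 genes with a mean of at least 0.1 FPKM lay between 3.40 and 3.48, and the lowest correlation between any 2 libraries across these genes was 0.976. The tables used hold no fragment counts, and the mapped read totals that the study gives per library were not used here, so no counting error is attached to an FPKM value. Of the hypothalamic marker list, 13 of 17 genes were found in the table, led by PMCH with a mean of 1493 FPKM, POMC with 107 FPKM, AGRP with 58.7 FPKM and GHRH with 21.4 FPKM. The vasopressin gene AVP was listed at 0 in all 6 libraries with a transcript model of 309 nt, so a value of 0 was not read as absence. The summed FPKM of the choroid plexus list was 333 in pubertal replicate 3 and between 8.58 and 60.4 in the other libraries. The summed FPKM of the anterior pituitary list was between 53.0 and 66.8 in the pubertal and between 3.67 and 21.1 in the prepubertal libraries, so it moved with stage. Most of this sum was the shared hormone subunit CGA, with means of 50.7 and 7.85 FPKM. Of the 6 genes tested, 5 had a log2 fold change above 0, against 49.8% of all genes tested, and that of LHB was -0.026. In limma, 0 genes of the lists for hypothalamus, tanycytes, oligodendrocytes, differentiating oligodendrocytes, choroid plexus, anterior pituitary and T cells had an adjusted p-value under 0.05. Without adjustment, p-values under 0.05 were found for 3 of the 12 genes tested in the hypothalamic list (2 higher in pubertal goats and 1 lower), 3 of 6 in the pituitary list and 1 of 6 in the T cell list (all higher), and 0 in the others. Of all genes tested, 3.51% were higher and 1.65% lower at this level. The part of these tissues in the results was not tested.

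All 8 genes passed the minimum of 0.1 FPKM, and they spanned a wide range of levels. PPP1R1B was highest with 17.4 ± 3.07 FPKM (SD, n = 6 libraries), above 64.7% of the genes tested. RGS9 had 4.44 ± 0.281 FPKM (SD, n = 6) and TCF7L2 had 3.54 ± 0.551 FPKM (SD, n = 6). BCL11B had 1.78 ± 0.952 FPKM (SD, n = 6) and NEUROD6 had 1.58 ± 0.491 FPKM (SD, n = 6). ADORA2A, LHX9 and TBR1 were each listed at 0 in some libraries, and their highest values were 2.01, 0.396 and 0.229 FPKM. For comparison, the hypothalamic transcription factors SIX6 and SIM1 had means of 4.64 and 3.56 FPKM, close to RGS9 and TCF7L2. Other factors of that list ranged lower, with FEZF1 at 3.48, NR5A1 at 3.22 and OTP at 0.852 FPKM, and NKX2-1 was not in the table. Neighbours in the order of levels were compared within each library. The order came from the means of these same 6 libraries, so the pairs and their direction were not set beforehand. PPP1R1B lay above RGS9, and RGS9 above TCF7L2, in all 6 libraries (two-sided exact sign-flip permutation p = 0.03125, the smallest that 6 libraries allow, and 0.109 after adjustment over the 7 pairs). TCF7L2 lay above BCL11B in 5 libraries, and NEUROD6 above ADORA2A in 5. BCL11B and NEUROD6 (3 of 6 libraries), ADORA2A and LHX9 (2 of 6), and LHX9 and TBR1 (4 of 6) did not differ beyond their spread. After adjustment 0 of the 7 neighbouring pairs had a p under 0.05 in this exact permutation test.

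**Figure D1:**
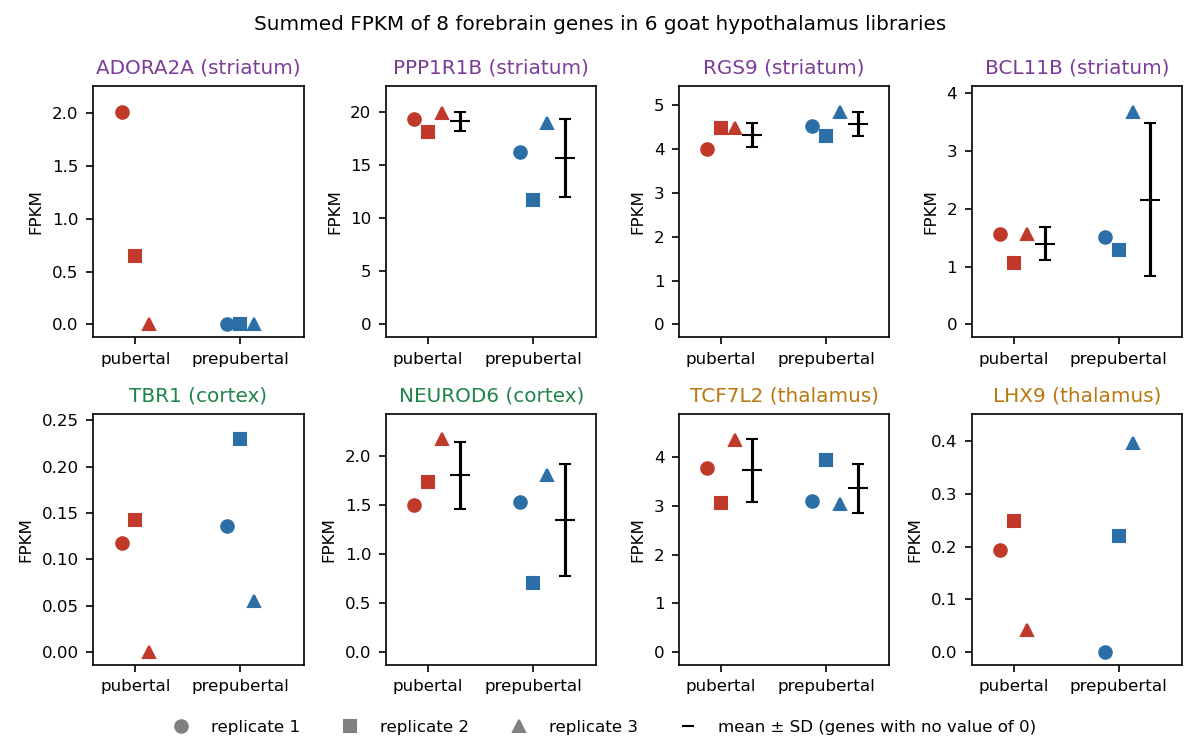
Summed FPKM (vertical axes, a scale for each gene) of the 8 genes in the 3 pubertal (red) and 3 prepubertal (blue) libraries, with the replicate number as the marker shape and the mean ± SD in black for genes with no value of 0. The stages overlap in every panel, and ADORA2A is above 0 only in pubertal replicates 1 and 2.

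PPP1R1B encodes DARPP-32, which turns into an inhibitor of protein phosphatase 1 when protein kinase A phosphorylates it. It had FPKM values of 19.3, 18.1 and 19.9 among pubertal goats, against 16.2, 11.7 and 19.0 among prepubertal ones. The pubertal libraries lay close together and the lowest value was that of prepubertal replicate 2, while prepubertal replicate 3 lay among the pubertal values. The log2 fold change was 0.30 (95% interval -0.07 to 0.67, adjusted p = 0.962 from limma). It was 0.12 without prepubertal replicate 2 and 0.44 without prepubertal replicate 3 (unadjusted p = 0.0223, adjusted p = 0.993 in limma). The tanycyte list, of which 6 of 7 genes were in the table and none of those at 0 throughout, summed to between 230 and 518 FPKM in the pubertal and between 225 and 352 FPKM in the prepubertal libraries. VIM, an intermediate filament gene of many cell types, made up 175.9 to 468.8 FPKM of these sums. The sum in prepubertal replicate 2, 351.5 FPKM, was the highest of that stage, and its part in the PPP1R1B values was not tested.

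RGS9 encodes a regulator of G protein signalling that shortens the response to D2 receptors in striatal neurons. It had FPKM values of 4.003, 4.475 and 4.491 among pubertal goats, against 4.53, 4.31 and 4.86 among prepubertal ones. These values hardly varied, with an SD of log2(FPKM + 1) of 0.075 over the 6 libraries, larger than that of only 7.66% of the genes tested. Between stages the log2 fold change was -0.064 (95% interval -0.32 to 0.19, adjusted p = 0.974 from limma). Its binding partners RGS7BP and GNB5, which anchor and stabilize it, had means of 9.61 and 55.5 FPKM and log2 fold changes of -0.0065 and -0.15.

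ADORA2A encodes an adenosine receptor of the striatal neurons that also carry D2 receptors. Pubertal replicate 1 held 2.01 FPKM and pubertal replicate 2 held 0.652 FPKM. The gene was listed at 0 in the remaining 4 libraries, pubertal replicate 3 among them. The stages overlap at 0, and no fold can be given against a stage listed at 0 (unadjusted p = 0.0519 and adjusted p = 0.962 from limma). With all libraries the exact permutation p was 0.4. In limma the unadjusted p was 0.00158 without pubertal replicate 3 (adjusted p = 0.519) and was 0.138 without pubertal replicate 1. The small p follows from taking away the only pubertal value of 0, while the prepubertal values are all 0 and have no spread. The gene also passed the minimum mean only through its pubertal values. All of this rests on a single transcript model of 296 nt. Of the 555 transcripts in the table shorter than 400 nt, 31.0% were listed at 0 in all 6 libraries and 20.7% in some, against 6.76% and 19.9% of the 27729 transcripts of 800 nt or more. DRD2, the D2 receptor gene of the same neurons, was above 0 in all 6 libraries. It had FPKM values of 2.55, 2.49 and 2.25 among pubertal goats, against 2.87, 2.095 and 1.43 among prepubertal ones. Which cells gave the DRD2 values was not tested.

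BCL11B encodes CTIP2, a zinc finger factor of medium spiny neurons and of the deep cortical layer that projects to the spinal cord. It had FPKM values of 1.56, 1.07 and 1.57 among pubertal goats, against 1.51, 1.29 and 3.68 among prepubertal ones. Prepubertal replicate 3 was thus well above the other 5 libraries, which overlapped. Its log2 fold change was -0.33 (95% interval -0.93 to 0.27, adjusted p = 0.962 from limma) with all libraries, and -0.0047 without prepubertal replicate 3. The model of this gene was also short, at 312 nt. The striatal companion list summed to 194.5 FPKM in this library, within the 175 to 196 FPKM of the other libraries. The T cell list, none of whose 6 genes was listed at 0 throughout, summed to 32.4 FPKM in this library, within the 27.3 to 37.7 FPKM of the others. CD247, with a mean of 23.3 FPKM, carried most of this sum. Of the low T cell receptor genes, CD3D was highest in this library and CD3E was lowest in it. The part of T cells in the BCL11B values was not tested.

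The cortical genes were low. TBR1, a T-box factor of deep-layer cortical neurons, had FPKM values of 0.117, 0.142 and 0 among pubertal goats, against 0.136, 0.229 and 0.0556 among prepubertal ones. Its mean was above that of only 0.579% of the genes tested. That mean, 0.113 FPKM, lay just above the minimum of 0.1 FPKM, and genes under the minimum are not counted in this rank. The log2 fold change was -0.069 (95% interval -0.33 to 0.19, adjusted p = 0.971 from limma), and -0.40 with a pseudocount of 0.1. Without pubertal replicate 3 it was -0.010. NEUROD6, a basic helix-loop-helix factor of cortical and hippocampal pyramidal neurons, had FPKM values of 1.503, 1.741 and 2.17 among pubertal goats, against 1.53, 0.706 and 1.81 among prepubertal ones. Prepubertal replicate 2 was lowest and the other 5 libraries overlapped. Between stages the log2 fold change was 0.28 (95% interval -0.18 to 0.74, adjusted p = 0.962 from limma), and 0.066 without prepubertal replicate 2. With a pseudocount of 0.1 it was 0.47. NEUROD6 had 2 transcripts. XM_005679235.1, of 2166 nt, held most of the signal with a mean of 1.46 FPKM. XM_013963356.1, of 1888 nt, had a mean of 0.121 FPKM and its highest value, 0.309 FPKM, in pubertal replicate 3.

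The thalamic genes lay at different levels. TCF7L2, a transcription factor at the end of the Wnt pathway, had FPKM values of 3.77, 3.07 and 4.34 among pubertal goats, against 3.11, 3.94 and 3.03 among prepubertal ones. High and low libraries occurred in both stages. Its log2 fold change was 0.11 (95% interval -0.22 to 0.45, adjusted p = 0.969 from limma). It was 0.021 without pubertal replicate 3, 0.22 without pubertal replicate 2 and 0.032 after quantile normalization. The 5 genes of the differentiating oligodendrocyte list, led by BCAS1 with a mean of 113 FPKM, had summed FPKM of 193, 138 and 149.8 among pubertal goats, against 129.5, 131 and 195 among prepubertal ones. The part of these cells in the TCF7L2 values was not tested. LHX9, a LIM homeobox factor of the developing thalamus, had FPKM values of 0.193, 0.249 and 0.0413 among pubertal goats, against 0, 0.2199 and 0.396 among prepubertal ones. The log2 fold change was -0.045 (95% interval -0.39 to 0.30, adjusted p = 0.989 from limma), and its sign changed when pubertal replicate 3 or prepubertal replicate 3 was left out.

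By stage, 0 of the 8 genes had an adjusted p-value under 0.05 in limma, where 0.0% of the 16397 genes tested did. At an unadjusted p-value under 0.05 the count was 0 of 8, against a background of 5.16%. The stages were fully separate for 0 of the 8, against 9.75% of the genes tested. A difference of 3 libraries against 3 cannot give an exact permutation p under 0.1, and the 8 exact values were between 0.2 and 0.9. Adding 1 before taking logs shrinks the changes of low genes, so the intervals above do not bound their change in FPKM.

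Each gene was set beside its paralogues, since FPKM is per length and can be compared between genes of a library. ADORA2A and BCL11B are less certain here, since their short models may not follow the whole gene. These comparisons of levels are drawn in the plot of members and paralogues. Of the adenosine receptors, ADORA1 (19.3 ± 2.47 FPKM, SD, n = 6), ADORA2B (9.83 ± 1.14 FPKM) and ADORA3 (24.7 ± 2.96 FPKM) all lay above ADORA2A in 6 of 6 libraries. PPP1R1B lay above its relatives PPP1R1A, with a mean of 5.96 FPKM, and PPP1R1C, with 0.790 FPKM, in 6 of 6 libraries. RGS9 lay under RGS7 (27.3 FPKM) and RGS11 (7.32 FPKM) in 6 of 6 libraries, and above RGS6 (4.18 FPKM) in 4. NEUROD6 was the highest of its family in all 6 libraries, with NEUROD1 at a mean of 0.379 FPKM, NEUROD2 at 0.240 FPKM and NEUROD4 at 0.107 FPKM. TCF7L2 lay above TCF7 (1.56 FPKM) and TCF7L1 (0.320 FPKM) and under LEF1 (9.99 FPKM) in 6 of 6 libraries. LHX9 lay under LHX2, with a mean of 1.58 FPKM, in 6 of 6. Each of the pairs that held in 6 libraries had an exact sign-flip permutation p = 0.03125, the smallest that 6 libraries allow, and an adjusted value of 0.0402 over the 18 pairs. BCL11B lay under BCL11A, with a mean of 3.17 FPKM, in 5 of 6 libraries (exact permutation p = 0.0625, adjusted 0.075). TBR1, EOMES and TBX21 had means of 0.113, 0.0602 and 0.122 FPKM, and TBR1 did not differ from either beyond the spread.

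**Figure D2:**
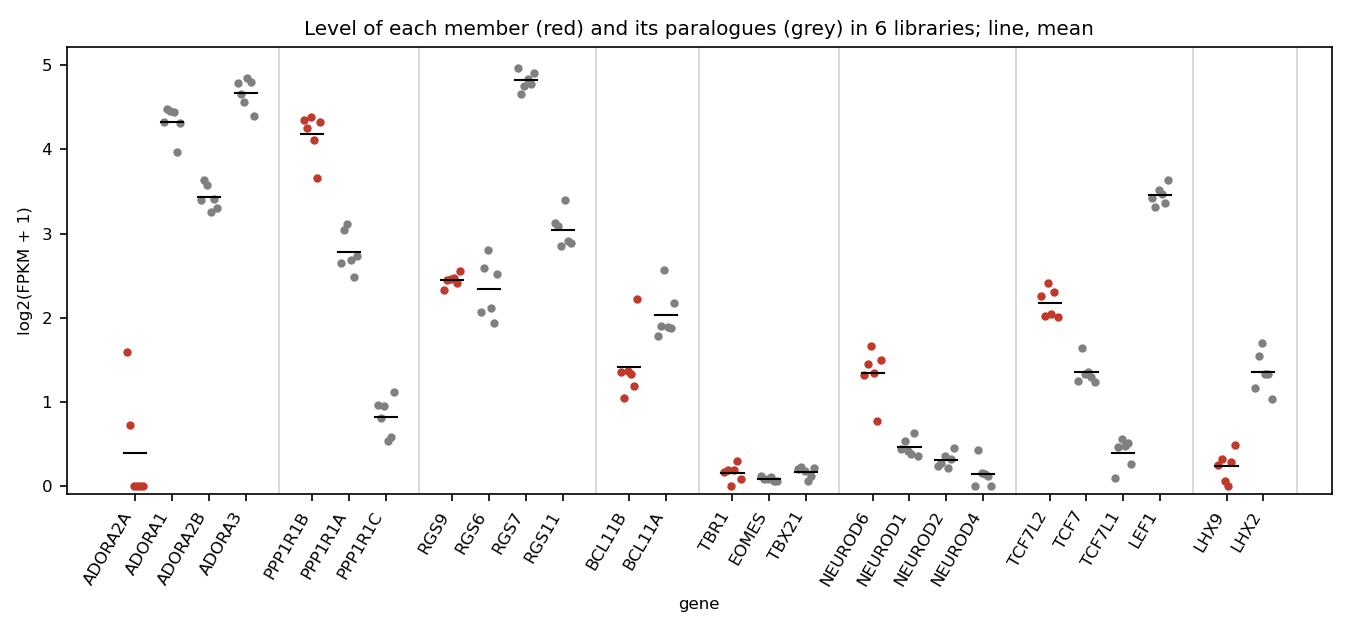
Level on log2(FPKM + 1) (vertical axis) of each member (red) and its paralogues (grey), with 1 point for each of the 6 libraries and a line at their mean. ADORA2A lies under the other adenosine receptors, PPP1R1B and NEUROD6 lie above their relatives, and TCF7L2 lies between LEF1 and TCF7.

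Other genes of the same regions were taken from lists, to see whether the members stood for their region. All 18 striatal companions were in the table, led by PENK, the enkephalin precursor, with a mean of 63.1 FPKM, ARPP21 with 20.4 FPKM, RXRG with 18.7 FPKM and PDE1B with 16.2 FPKM. PENK is also made by hypothalamic neurons. DRD1, the D1 receptor gene of medium spiny neurons, had a mean of 3.99 FPKM, and which cells gave it was not tested. In limma 0 of the 18 had an adjusted p-value under 0.05. At an unadjusted p-value under 0.05, 0 were higher and 1 was lower, against 3.51% and 1.65% of all genes tested. The 1 gene was SLC35D3, a sugar transporter family member that aids D1 receptor traffic, with values of 1.70, 1.84 and 1.44 FPKM for pubertal libraries, against 2.13, 2.31 and 2.73 FPKM for prepubertal libraries (log2 fold change -0.35, adjusted p = 0.882 from limma). The stages did not overlap for RARB, which was higher, and for PENK and SLC35D3, which were lower in pubertal libraries, where 5.91% and 3.84% of all genes tested did so. The median log2 fold change of the list was 0.039, beside -0.00065 for all genes tested, and its sign changed without pubertal replicate 2 (-0.024) or prepubertal replicate 2 (-0.023).

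Of the 18 cortical companions, 15 were in the table and tested. The abundant members were CAMK2A with a mean of 61.8 FPKM, NRN1 with 29.7 FPKM, SV2B with 12.6 FPKM and LAMP5 with 8.33 FPKM, and CAMK2A is one that neurons outside the cortex can also express. NEUROD2, a relative of NEUROD6 in cortical neurons, had the lowest mean of the list, 0.240 FPKM. SLC17A7, the vesicular glutamate transporter typical of the cortex, was at 1.05 FPKM. In limma 0 of the 15 had an adjusted and 0 an unadjusted p-value under 0.05, against 5.16% of all genes tested, and the stages overlapped for all 15. The median log2 fold change was 0.0015 and ran from -0.027 to 0.042 with a library left out. It was -0.082 with a minimum of 1 FPKM, -0.068 after quantile normalization and -0.035 after centring on the library median. It was 0.0016 with a pseudocount of 0.1 and 0.0077 with transcripts fitted singly. No minimum, no trend and the replicate block could not move it, since they leave the fold changes of these 15 genes unchanged.

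All 10 thalamic companions were in the table, led by RORA with a mean of 18.6 FPKM, PRKCD with 10.03 FPKM, LEF1 with 9.99 FPKM and PLEKHG1 with 9.74 FPKM. The part of the thalamus in these values was not tested. GBX2, a factor of the developing thalamus, had a mean of 0.450 FPKM. In limma 0 of the 10 had an adjusted p-value under 0.05, and 1 was higher at an unadjusted p-value under 0.05, against 3.51% of all genes tested. This was SHOX2, a homeobox factor, which had FPKM values of 1.07, 0.471 and 1.71 among pubertal goats, against 0, 0.664 and 0.320 among prepubertal ones (adjusted p = 0.938 from limma). The stages overlapped for all 10, where 9.75% of all genes tested were separate. The median log2 fold change of the list was 0.17, and 0.076 without pubertal replicate 3, 0.10 without pubertal replicate 2 and 0.087 without prepubertal replicate 2. The 3 genes of the habenula list in the table, CHRNA3, GPR151 and CHRNB4, had means of 1.43, 1.24 and 0.680 FPKM. Their log2 fold changes in limma were between -0.014 and 0.075, and 0 of 3 had an unadjusted p-value under 0.05, against 5.16% of all genes tested.

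**Figure D3:**
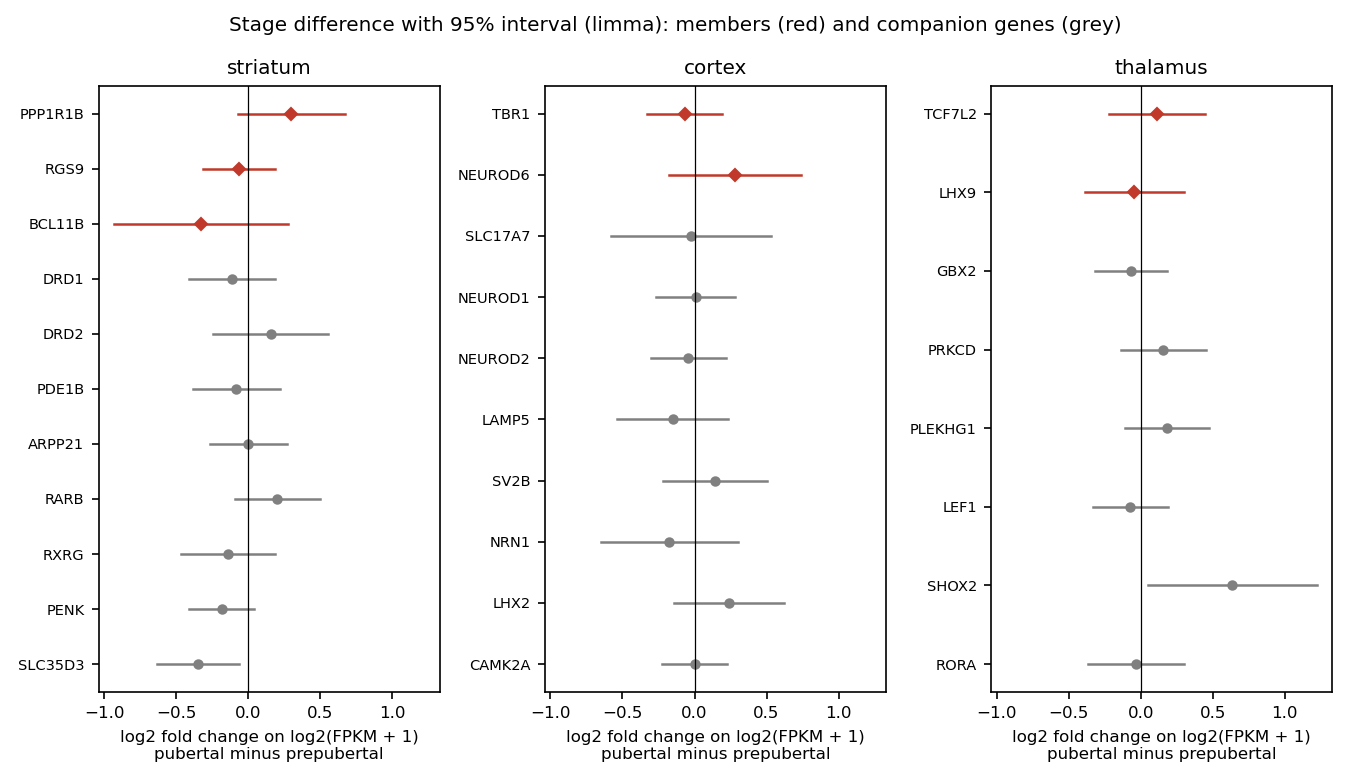
Difference between stages on log2(FPKM + 1) (horizontal axes, pubertal minus prepubertal) with the 95% interval from limma, for members (red) and companions (grey) of each region. Companions drawn are those named in the text, and ADORA2A is left out because it was listed at 0 in a whole stage. The intervals of all 7 members drawn include 0, and those of SLC35D3 and SHOX2 do not, without adjustment for the number of genes.

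The 13 genes of the list of proteins that act with DARPP-32 or RGS9 had means between 9.61 and 214 FPKM, led by PRKACB, a catalytic subunit of protein kinase A, with 214 FPKM, PPP1CB, a catalytic subunit of protein phosphatase 1, with 120.2 FPKM, its scaffold PPP1R9B with 63.6 FPKM and PPP1CC with 59.5 FPKM. In limma 0 of the 13 had an adjusted or an unadjusted p-value under 0.05, where 5.16% of all genes tested had an unadjusted one. Their log2 fold changes lay between -0.15 and 0.067, with a median of -0.031. Only 1 of 13 was above 0, against 49.8% of all genes tested. Those of PPP1CA, PPP1CB, PRKACA and RGS7BP lay between -0.0065 and -0.0004, so the count of signs does not show a shared fall. The paralogue list had 17 of its 18 genes tested. Of these, 0 had an adjusted or an unadjusted p-value under 0.05 in limma, against the same 5.16% unadjusted.

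Whether genes of a region varied together from goat to goat was measured by the correlation of log2(FPKM + 1) over the 6 libraries. Over the 28 pairs the median Pearson r was 0.012, with 14 pairs above 0. The 8 pairs within a region had a median r of -0.061 and the 20 pairs between regions had 0.012. After adjustment over the 28 pairs, 0 had a p-value under 0.05, and 3 had an unadjusted one. PPP1R1B and NEUROD6, of different regions, had the highest r, 0.938 (exact permutation p = 0.0264, adjusted 0.298), while the Spearman rho of this pair was 0.657 (by exact permutation p = 0.175, adjusted 0.80). Both genes were lowest in prepubertal replicate 2. Leaving out prepubertal replicates 1 and 2, whose PPP1R1B values were farthest from the median, gave r = 0.427, so the relation rests on those libraries. The cortical pair TBR1 and NEUROD6 went in opposite directions, with r = -0.890 (exact permutation p = 0.025, adjusted 0.298) and rho = -0.771 (exact permutation p = 0.103, adjusted 0.80). Without pubertal replicate 3 and prepubertal replicate 2, its r was -0.544. PPP1R1B and TBR1 had r = -0.827 (exact permutation p = 0.0319, adjusted 0.298) and rho = -0.886 (exact permutation p = 0.0333, adjusted 0.467), and r was -0.794 without prepubertal replicates 1 and 2. With the mean of each stage subtracted, these 3 values of r were 0.921, -0.877 and -0.815. TBR1 lay only between 0 and 0.229 FPKM, so the values of r with TBR1 rest on small differences near 0. No counting error is attached to those differences. The thalamic pair TCF7L2 and LHX9 had r = -0.361 (exact permutation p = 0.446, adjusted 0.933) and rho = -0.60 (exact permutation p = 0.242, adjusted 0.846).

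**Figure D4:**
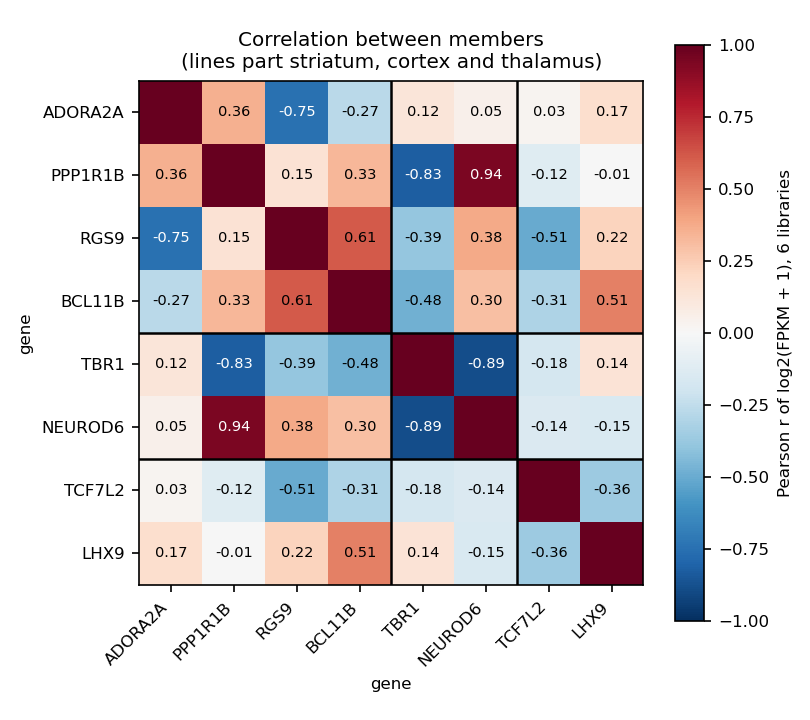
Pearson r, computed from log2(FPKM + 1) in 6 libraries, for each pair of the 8 genes, with blue for negative and red for positive values and lines between the striatal, cortical and thalamic genes. Blocks of a region are not red throughout, and the strongest values are 0.94 for PPP1R1B with NEUROD6 and -0.89 for TBR1 with NEUROD6.

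The genes most like each member over the 6 libraries were sought among 12526 or 12527 named genes, depending on the member, with a mean of at least 1 FPKM, and are given as a description, since the highest of so many values will be high. For PPP1R1B they were PRDM2 (r = 0.991, rho = 1), CERCAM (r = 0.978, rho = 1) and SEMA7A (r = 0.977, rho = 0.829). For NEUROD6 they were S100A16 (r = 0.996, rho = 0.943), VSTM5 and KCNK12, and for TBR1 they were ZNF140 (r = 0.993, rho = 0.943), CALCR and ADAP2. RGS9 was most like ICMT (r = 0.992, rho = 0.943), MORN1 and SLC6A17, and TCF7L2 was most like CD2AP (r = 0.992, rho = 1), TLR3 and ZNF792. BCL11B was most like CPNE5 (r = 0.979, rho = 0.60), PABPC5 and SFRP1, all of which were highest in prepubertal replicate 3. LHX9 was most like LNX2 (r = 0.978, rho = 0.943), MID2 and EME2. ADORA2A was most like UTP14A (r = 0.971, rho = 0.845), GIN1 and DUSP6, all of which were highest in pubertal replicates 1 and 2. No gene of the striatal, cortical or thalamic lists was among these 24.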

How the data were processed

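Hypothalamus RNA of 3 pubertal and 3 prepubertal goats was measured, with groups and replicate numbers from the sample titles. The authors removed ribosomal RNA, made strand-specific paired-end libraries, aligned reads by TopHat, built transcripts by means of Scripture and Cufflinks 2.1.1, and deposited FPKM per transcript and library, normalized for transcript length and mapped fragments. The genome build is not given in the sources used here. The table of the authors' Cuffdiff comparison also holds group FPKM, fold changes, p-values and q-values, which were not used. From it came the gene and the length of each transcript. The lncRNA files were not used here.

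FPKM was summed by gene. Symbols came from the RefSeq gene table of ARS1.2, which matched 19083 of 20225 genes (94.4%). limma 3.58.1 in R 4.3.3 (eBayes with a trend, two-sided) was run on log2(FPKM + 1) over the genes with a mean of at least 0.1 FPKM, with Benjamini-Hochberg adjustment over all of them and a threshold of 0.05. A fold change on this scale understates the change of low genes. limma was also run on simulated data with planted changes, and no result given here rests on that run. Levels and correlations were tested by exact permutation in Python 3.11.15 with numpy 2.4.6, pandas 2.3.3 and scipy 1.17.1, and figures were drawn with matplotlib 3.10.9. The alternatives were another pseudocount, other minimum values, quantile normalization, centring on the library median, no trend, the replicate number as a block, single transcripts and leaving out each library in turn. Other minimum values, no trend and the replicate block leave the fold change of a gene unchanged by design, so a kept sign there carries no information.

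The members and gene lists were chosen with earlier results of these data known. The genes named were the members, the 4 most abundant genes of each regional, partner and hypothalamic list (the lists of other cell types are given as sums), any gene past the adjusted threshold, and the 3 genes most like each member. The single paralogues, SIX6, SIM1, AVP, CGA, MBP, VIM, CD247, CD3D, CD3E, BCAS1, DRD1, DRD2, SLC35D3, RARB, NEUROD2, SLC17A7, GBX2, SHOX2, RGS7BP and GNB5, and the test against paralogues, were chosen after their values were seen. The same holds for FEZF1, NR5A1, OTP, NKX2-1, LHB, PPP1CA and PRKACA. The oligodendrocyte list summed to between 1496 and 5148 FPKM, with MBP listed at 0 in 1 library, and was not used further. Some companions are counted in their lists and not reported here singly.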

Additional observations from a re-analysis of the deposited data

How the results depend on the processing

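In none of the alternatives did any of the 8 genes have an adjusted p-value under 0.05 in limma. At an unadjusted p-value under 0.05 the count of members went from 0 to 1 with a pseudocount of 0.1 and with the replicate block (ADORA2A both times), and ran from 0 to 1 with a library left out, the gene being ADORA2A without pubertal replicate 3 and PPP1R1B without prepubertal replicate 3. Over all genes, the count past the adjusted threshold went from 0 to 1 with the replicate block and ran from 0 to 4 with a library left out, 4 of them without pubertal replicate 2, and the count at an unadjusted p-value under 0.05 ran from 500 (without prepubertal replicate 1) to 2220 (without pubertal replicate 1) around 846. The replicate numbers did not pair the libraries: the deviations of same-numbered libraries correlated at -0.025, -0.10 and 0.075, so the block is a number only. With a library left out the log2 fold change of LHX9 ran from -0.17 to 0.068, that of RGS9 from -0.098 to -0.020 (and -0.14 after quantile normalization) and that of TBR1 from -0.12 to -0.010, while members other than LHX9 kept the sign of their fold changes in the alternatives run. The number of member pairs with an unadjusted p under 0.05 went from 3 to 1 with a pseudocount of 0.1 and with centring on the library median. It was 0 with stage means subtracted, and ran from 0 (without prepubertal replicate 2 or 3) to 3 with a library left out. With stage means subtracted, values were permuted only within a stage, which allows fewer pairings than the 720 of the main test. That count of 0 is therefore from a coarser test and does not show that the correlations came from stage. The number of neighbours in the order of levels that held in every library ran from 2 to 3 around 2. The minimum of 1 FPKM left out ADORA2A, TBR1 and LHX9, and the cause of these shifts was not tested. No counting error was worked out from the FPKM values, so none is set beside the low genes.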
